A study of Mus musculus with 6 samples.

Results

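The Krüppel-like factors (KLFs) described here are 10 mouse transcription factor genes, Klf2, Klf3, Klf4, Klf5, Klf6, Klf7, Klf9, Klf10, Klf13 and Klf16. They were chosen by symbol: every probe annotated with 1 of these genes was taken, and a value of exactly 0 was read as not measured. Of the 10 genes, 9 had a probe with a value on all 6 arrays, as had 9574 of the 10698 named genes in the table. The 9 genes had 10 probes among the 16281 in the table. No probe was listed for Klf16, which was not analysed here. The list was drawn up with earlier results of these data known, so each count over it describes these genes and supports nothing beyond them.

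RNA came from RAW 264.7 cells, a mouse macrophage line established from a virus-induced tumour. Treated cells had received bacterial lipopolysaccharide (LPS, 100 ng/ml) together with LPS-binding protein (LBP, 100 pM), untreated cells had received neither, and both were cultured for 4 h. On each of 6 two-colour arrays, treated RNA was set against untreated RNA, with the treated RNA in Cy5 on 3 arrays and in Cy3 on the other 3, numbered as sets 1 to 3 in each orientation. Each value is the log2 of treated over untreated RNA, so 1 means a doubling, and values are summarised as the mean ± SD of n = 3 sets, each set being the mean of its 2 arrays. The direction is the likely one, since the labels call Cy5 the test channel. Turning the ratio round would turn every sign given here. On the reading used, Il1b, an inflammatory cytokine gene that LPS is known to induce in macrophages, was at 4.17 ± 0.055. The table holds ratios and no intensities, so no gene's level can be given and the cell type cannot be checked by the presence of its markers. Of 9 measured macrophage markers, 6 rose and 1 fell by the test described below, which called 14.0% of all features higher and 15.0% lower. Of 22 measured markers of endothelial cells, fibroblasts, T cells, B cells and epithelial cells, 2 rose (Kdr at 0.80 ± 0.36 and Cd4 at 0.23 ± 0.12) and 0 fell, and their part in the results was not tested. In RNA from a whole culture, fewer cells of a type and less RNA per cell cannot be told apart.

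KLF proteins bind GC-rich DNA, such as CACCC and GC boxes, through zinc fingers at the end of the chain, and they share this site preference with the SP factors. One branch, which includes Klf9, Klf10, Klf13 and Klf16, recruits the Sin3 co-repressor, another, with Klf3, recruits the CtBP co-repressors, and Klf2, Klf4, Klf5, Klf6 and Klf7 belong to a branch known mostly for activation. In macrophages Klf2 is known as a restraint on inflammatory gene expression, and Klf4 has been reported to restrain it in some studies. Klf6 is known to favour such expression.

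After 4 h with LPS and LBP, 5 of the 9 measured KLF genes were lower in treated cells, 1 was higher and 3 did not pass the test. Klf9 fell most, to 1.93-fold lower, followed by Klf13 (1.77-fold lower), Klf10 (1.72-fold), Klf2 (1.54-fold) and Klf4 (1.39-fold). Klf6 was the gene that rose, 1.75-fold. Klf3, Klf5 and Klf7 stayed within 1.07-fold of untreated cells on average. By branch, all 3 measured genes of the Sin3-binding branch fell, while among the 5 genes of the activator branch 1 rose and 2 fell. The test was limma's moderated test of the set values against 0, fitted over all 11364 features and adjusted by the Benjamini-Hochberg method, with an adjusted p below 0.05 as the threshold. It called 29.0% of all features, 15.0% as lower and 14.0% as higher. Among the 9 genes, 5 were both called and changed at least 1.5-fold, against 4.86% of all features, and their median was -0.47, against 0.00079 over all features.

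**Figure D1:**
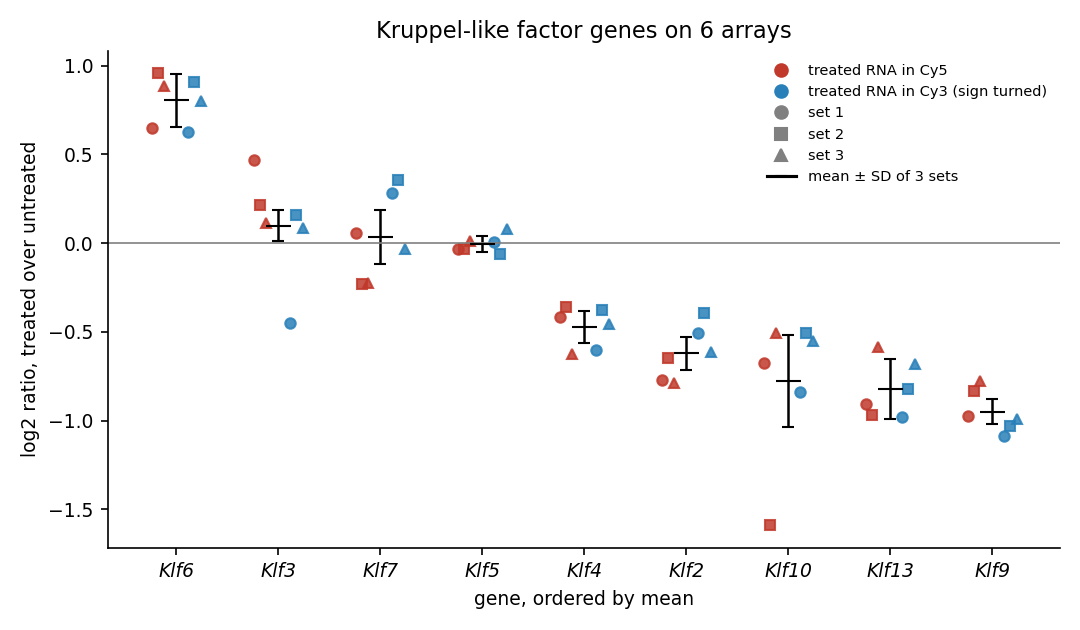
Log2 ratio of treated over untreated RNA (vertical axis) on each of the 6 arrays for the 9 measured Krüppel-like factor genes, ordered by their mean; red points are arrays with treated RNA in Cy5, blue points arrays with treated RNA in Cy3 after turning the sign, marker shapes are sets, and black bars are the mean ± SD of 3 sets. All 6 points lie above 0 for Klf6 and below 0 for Klf4, Klf2, Klf10, Klf13 and Klf9, and 1 array of Klf10 at -1.59 stands apart from its other 5.

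The DNA just before the transcript start is shown for 5 of the 6 called genes, of which all but Klf6 fell. Klf10, which also fell, is not among them because no window was held for it. Sequences are RefSeq's on GRCm38.p6, which held a window for 7 of the 9 genes. Each is the 250 bases before the start, 5′ to 3′ on the gene's strand. Capitals mark every match, on either strand, to 10 motifs: the GC box GGGCGG, the CACCC box CCACCC, the MEF2 motif, the NF-κB motif, the CArG box, the AP-1 motif TGANTCA, the CRE core TGACG, the E-box CACGTG, the CCAAT box and the TATA box TATAAA. The windows are chr13:5861239-5861488 (plus strand) for Klf6, chr8:72318812-72319061 (plus strand) for Klf2, chr4:55532476-55532725 (minus strand) for Klf4, chr19:23140976-23141225 (plus strand) for Klf9 and chr7:63938916-63939165 (minus strand) for Klf13.
Klf6: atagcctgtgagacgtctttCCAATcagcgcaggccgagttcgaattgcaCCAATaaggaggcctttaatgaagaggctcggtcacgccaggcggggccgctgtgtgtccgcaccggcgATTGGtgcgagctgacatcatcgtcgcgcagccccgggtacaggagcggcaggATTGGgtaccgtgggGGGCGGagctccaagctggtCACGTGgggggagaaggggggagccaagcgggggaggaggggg
Klf2: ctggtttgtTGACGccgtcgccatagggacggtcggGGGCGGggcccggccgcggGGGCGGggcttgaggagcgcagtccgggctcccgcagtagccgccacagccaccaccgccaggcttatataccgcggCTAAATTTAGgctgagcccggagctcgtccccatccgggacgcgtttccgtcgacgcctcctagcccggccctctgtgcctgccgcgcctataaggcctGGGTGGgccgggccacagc
Klf4: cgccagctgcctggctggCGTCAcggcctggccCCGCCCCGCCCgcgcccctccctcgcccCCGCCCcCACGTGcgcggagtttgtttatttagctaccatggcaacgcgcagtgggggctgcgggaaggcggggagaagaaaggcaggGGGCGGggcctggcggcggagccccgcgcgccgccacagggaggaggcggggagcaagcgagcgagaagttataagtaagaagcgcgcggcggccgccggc
Klf9: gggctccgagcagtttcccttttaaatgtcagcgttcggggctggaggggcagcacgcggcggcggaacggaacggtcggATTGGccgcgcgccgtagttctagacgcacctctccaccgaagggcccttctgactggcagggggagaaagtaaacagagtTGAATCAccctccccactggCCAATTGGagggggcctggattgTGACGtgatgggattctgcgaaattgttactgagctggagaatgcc
Klf13: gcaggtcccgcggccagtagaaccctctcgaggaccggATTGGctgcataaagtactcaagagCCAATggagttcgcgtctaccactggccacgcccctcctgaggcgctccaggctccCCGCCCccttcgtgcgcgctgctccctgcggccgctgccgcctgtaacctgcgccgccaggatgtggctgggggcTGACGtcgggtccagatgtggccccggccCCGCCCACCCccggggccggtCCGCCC

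The Klf6 window held 4 CCAAT boxes, 1 GC box and 1 E-box, and no CACCC box. In the Klf2 window, 1 match to the MEF2 motif lay 118 to 109 bases before the start, beside 2 GC boxes, 1 CACCC box and 1 CRE core. MEF2 factors are known activators of Klf2 downstream of the kinase ERK5, and 2.92% of 32851 RefSeq windows of this length held a match to that motif. The Klf4 window held 4 GC boxes, 1 E-box and 1 CRE core. The Klf13 window held 3 GC boxes, 1 CACCC box that overlaps the GC box at 27 to 22 bases before the start, 2 CCAAT boxes and 1 CRE core. In the Klf9 window no match to the GC box GGGCGG or the CACCC box CCACCC was found. The shorter letters CACCC, which were not searched, do occur in it, overlapping the end of the AP-1 match. The Klf9 window also held 3 CCAAT boxes, 2 of which overlap, 1 CRE core and 1 AP-1 match. That AP-1 match reads TGAATCA, and the search allowed any base in the middle. Over all windows, 32.7% held a GC box, 28.1% a CACCC box, 33.8% a CCAAT box, 17.8% a CRE core, 6.75% an AP-1 match and 6.02% an E-box. The letters of the NF-κB motif (3.90% of windows), the CArG box (1.47%) and the TATA box (12.4%) were in none of the 7 windows of these genes. For the TATA box only the exact letters TATAAA were searched. The similar letters TATAAG, which were not searched, do occur in the Klf2 and Klf4 windows. The windows of Klf3 and Klf7, which did not pass the test, held 6 and 1 GC boxes and 3 CACCC boxes each. These matches describe the letters and were not tested as sites.

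**Figure D2:**
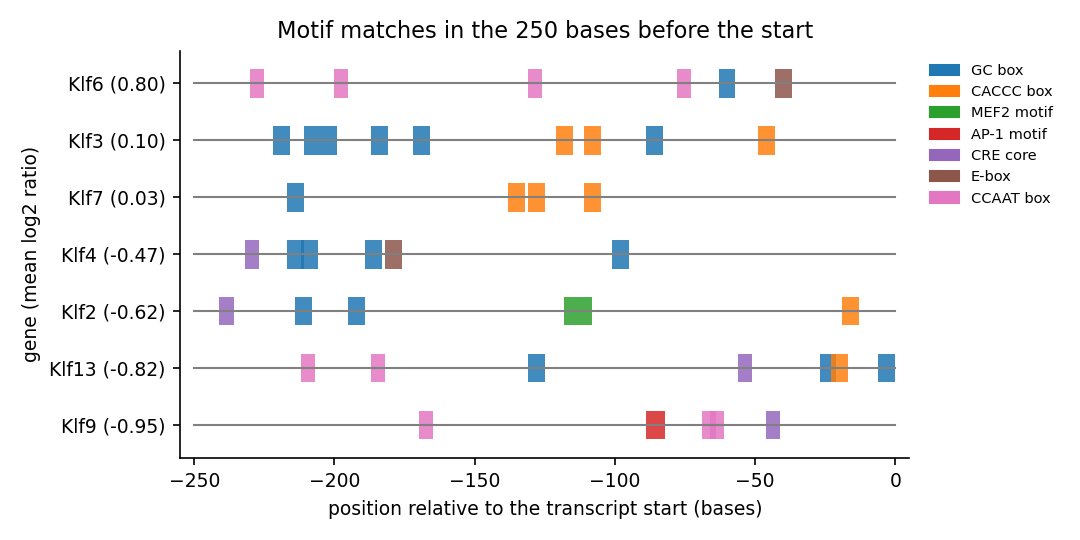
Motif matches in the 250 bases before the transcript start of the 7 Krüppel-like factor genes with a RefSeq window, with position relative to the start in bases on the horizontal axis, 1 line per gene and its mean log2 ratio of treated over untreated RNA in brackets. The MEF2 match is in the Klf2 window, 4 CCAAT boxes are in that of Klf6, and no blue (GC box, GGGCGG) or orange (CACCC box, CCACCC) block is in that of Klf9.

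Klf9, a repressor gene that glucocorticoids and thyroid hormone are known to induce, read -0.97, -0.83 and -0.78 on the arrays of sets 1, 2 and 3 with treated RNA in Cy5, and -1.08, -1.03 and -0.99 on those with treated RNA in Cy3. All 6 arrays were low, and those with treated RNA in Cy3 were all lower than those with it in Cy5. Their set mean was -0.95 ± 0.073 (adjusted p = 7.53e-06), the value of rank 22 from the lowest among 11364 features. Klf13, a repressor or activator known in T cells as a regulator of the chemokine gene Ccl5, read -0.91, -0.97 and -0.58 with treated RNA in Cy5 and -0.98, -0.82 and -0.68 with it in Cy3. Set 3 was the least lowered in both orientations, and the mean was -0.82 ± 0.17 (adjusted p = 8.42e-05).

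Klf10, first described as a gene induced early by TGF-β, read -0.68, -1.59 and -0.51 with treated RNA in Cy5 and -0.84, -0.51 and -0.55 with it in Cy3. All 6 arrays were below 0, and the array of set 2 with treated RNA in Cy5 was far lower than the rest. The mean was -0.78 ± 0.26 (adjusted p = 5.43e-04), the widest spread of the 9 genes, and -0.64 without set 2. With the 3 arrays of treated RNA in Cy5 alone the mean was -0.92 and the call was lost (adjusted p = 0.055). A second Klf10 probe was listed at exactly 0 on 5 arrays. On the 1 array that measured it, set 2 with treated RNA in Cy3, it read 1.13 after turning the sign, opposite to the first probe's -0.51 there. It was left out of the mean. With exact zeros kept as values, both probes were averaged and Klf10 was at -0.30 (adjusted p = 0.036).

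Klf2, a factor that keeps lymphocytes and endothelial cells quiescent, read -0.77, -0.64 and -0.79 with treated RNA in Cy5 and -0.51, -0.40 and -0.62 with it in Cy3. Every array was low, and the arrays with treated RNA in Cy5 were all lower than those with it in Cy3. The set mean was -0.62 ± 0.092 (adjusted p = 8.79e-05). Klf4, one of the factors used to reprogram cells to pluripotency and a regulator of monocyte differentiation, read -0.42, -0.36 and -0.62 with treated RNA in Cy5 and -0.60, -0.38 and -0.46 with it in Cy3. Its mean was -0.47 ± 0.091 (adjusted p = 3.43e-04), with the orientations on average within 0.011 of each other.

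Klf6, a ubiquitous factor also known as a tumour suppressor, read 0.65, 0.96 and 0.89 with treated RNA in Cy5 and 0.63, 0.90 and 0.80 with it in Cy3. All 6 arrays were high, and set 1 was the lowest in both orientations. The mean was 0.80 ± 0.15 (adjusted p = 7.01e-05). Its absolute change exceeded that of 97.2% of all features, and it ranked 279 from the highest. Same signs on all 6 arrays, seen for these 6 called genes, were found for 25.7% of all features.

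The other 3 genes had no call. Klf5, an activator known from epithelia and smooth muscle, ranged over the 6 arrays from -0.064 to 0.078 around a mean of -0.0051 ± 0.047, with a 95% confidence interval of the mean from -0.11 to 0.097 (adjusted p = 0.948). Klf7, a factor known from neuronal development, read 0.057, -0.23 and -0.23 with treated RNA in Cy5, against 0.28, 0.35 and -0.031 with it in Cy3. Its mean of 0.034 ± 0.15 had an interval from -0.11 to 0.18 (adjusted p = 0.740). Klf3, known as a CtBP-dependent repressor in blood cells and fat, read 0.47, 0.21 and 0.11 with treated RNA in Cy5 and -0.45, 0.16 and 0.086 with it in Cy3. In set 1 the orientations had opposite signs, and the mean was 0.098 ± 0.088, with an interval from -0.017 to 0.21 (adjusted p = 0.194). These intervals, taken over set means, leave out changes as large as that of Klf4, the smallest called. Opposite departures of a set's 2 arrays partly cancel in such means, so the intervals can be too narrow. Over single arrays Klf3 ranged from -0.45 to 0.47.

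**Figure D3:**
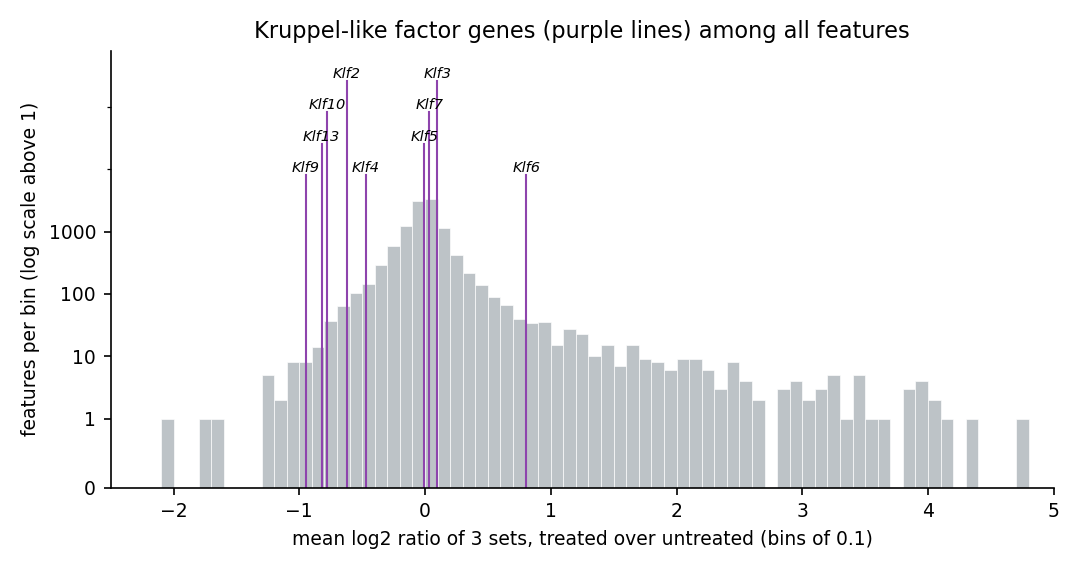
Number of features (vertical axis, log scale above 1) by mean log2 ratio of treated over untreated RNA in bins of 0.1, for all 11364 features, with the 9 Krüppel-like factor genes marked by purple lines whose height has no meaning. Klf9 at -0.95 lies in the thin lower tail, Klf6 at 0.80 lies well inside the longer upper tail, and Klf5, Klf7 and Klf3 lie at the peak.

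Ordered by their means, the genes fell into 3 levels, with Klf6 on top, Klf3, Klf7 and Klf5 near 0, and Klf4, Klf2, Klf10, Klf13 and Klf9 below. Klf6 and Klf3 did not overlap on any array, and their difference over sets was 0.71 ± 0.067 (SD, n = 3). Klf5 and Klf4 did not overlap either, with a difference of 0.47 ± 0.13 (SD, n = 3). Within a level, the set values of every pair of neighbours overlapped. The difference of Klf4 over Klf2 was 0.15 ± 0.016 and had the same sign in 3 of 3 sets, as had that of Klf13 over Klf9 at 0.13 ± 0.11. The differences of Klf2 over Klf10 (0.16 ± 0.35) and of Klf10 over Klf13 (0.044 ± 0.18) were smaller than their spread. These differences were not tested, since the genes were chosen with their values known.

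Dye orientation is a measure that the choice of genes did not use. The dye effect, the mean of a set's 2 unturned ratios in which treatment cancels, passed limma's test for 0 of the 9 genes, with a smallest adjusted p of 0.183 for Klf2 at -0.11. Over all 11364 features 0% passed, while 2630 features had p below 0.05 in that test before adjustment. A missing call therefore does not show that a gene lacks a dye effect. The largest gaps between orientations among the 9 genes, treated RNA in Cy5 minus treated RNA in Cy3, were those of Klf7 (-0.34), Klf3 (0.34) and Klf10 (-0.29), and that of Klf6 was 0.053.

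**Figure D4:**
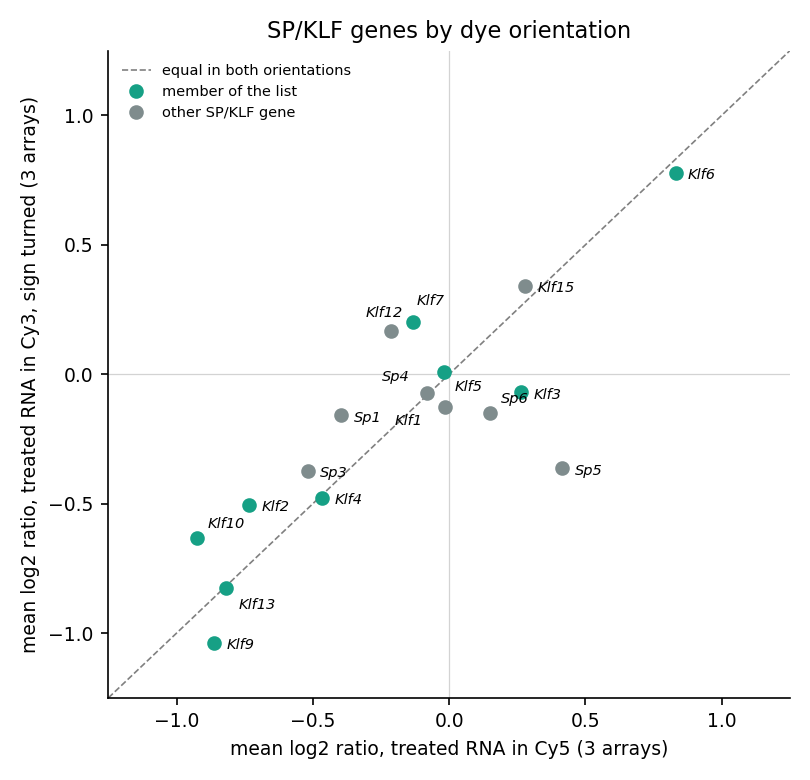
Mean log2 ratio of treated over untreated RNA over the 3 arrays with treated RNA in Cy5 (horizontal axis) and the 3 with treated RNA in Cy3 after turning the sign (vertical axis) for the 17 SP/KLF genes with a probe on all 6 arrays; green points are the 9 genes of the list, grey points the 8 other family genes, and the dashed line marks equal values. The 6 called genes of the list have the same sign in both orientations, with Klf10 (-0.92 and -0.63) farthest from the line among them, while Klf3, Klf5, Klf7, Klf12, Sp5 and Sp6 have opposite signs.

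Of the other KLF genes, Klf1, the erythroid factor, and Klf12 did not pass, at -0.071 ± 0.16 and -0.024 ± 0.039. Klf12 ranged from -0.52 to 0.43 over arrays, a spread that its set means do not show. Klf15, known for roles in metabolism and glucocorticoid response, rose to 0.31 ± 0.17 (adjusted p = 0.010) and was above 0 on all 6 arrays, from 0.12 to 0.65. Over all 12 KLF genes with a probe, the counts were thus 2 higher, 5 lower and 5 not called. The shares over all features were 14.0% higher and 15.0% lower. The SP factors Sp3 (-0.45 ± 0.18, adjusted p = 0.0023) and Sp1 (-0.28 ± 0.011, adjusted p = 0.0020), which bind the same kind of GC box in most cells, both fell on all 6 arrays. Sp1 ranged more widely over arrays, from -0.40 to -0.13, and every array with treated RNA in Cy5 was lower than those with it in Cy3. Sp4 (-0.076 ± 0.099), Sp5 (0.026 ± 0.11) and Sp6 (0.00013 ± 0.092) had no call.

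Among listed co-repressors and co-activators of KLF proteins, 1 of 11 measured genes rose and 2 fell, with a median of -0.049. These counts were near the shares of all features called, 14.0% higher and 15.0% lower, with a median of 0.00079. Sin3a, the scaffold bound by the branch of Klf9, Klf10 and Klf13, fell to -0.57 ± 0.071 (1.48-fold lower, adjusted p = 9.52e-05), and the acetyltransferase gene Kat2a fell to -0.17 ± 0.021. Fhl3, a LIM protein gene known as a partner of Klf3, rose to 0.20 ± 0.12 (adjusted p = 0.033). Ctbp2 (-0.11 ± 0.051) and the deacetylase gene Hdac1 (0.099 ± 0.055) did not pass. Of 5 measured ubiquitin ligases reported to act on KLF proteins, 2 fell and 0 rose (median -0.099). These were Stub1 (-0.24 ± 0.080) and Siah1a (-0.22 ± 0.10), which ranged from -0.82 to 0.18 over arrays, while Smurf1 (-0.099 ± 0.036) and Fbxo32 (0.031 ± 0.15) had no call.

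The MEK5-ERK5-MEF2 pathway is a kinase cascade known to switch on Klf2 and Klf4. Its list also held deacetylase genes that are not part of the cascade, such as Hdac5 and Sirt1. Of the 10 measured genes of this mixed list, 1 rose and 3 fell, with a median of -0.035. Over all features, 14.0% were called higher and 15.0% lower. Hdac5, a deacetylase that represses MEF2, fell to -0.68 ± 0.089 (1.60-fold lower, adjusted p = 5.57e-05). Sirt1 fell to -0.38 ± 0.073 and Map2k5, which encodes MEK5, to -0.19 ± 0.023. Map3k2, a kinase upstream of MEK5, rose to 0.18 ± 0.029 (adjusted p = 0.015). The factor genes Mef2d (0.14 ± 0.18) and Mef2c (-0.10 ± 0.039) did not pass.

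Of 20 measured genes reported as KLF targets in macrophages, endothelium or other cells, 6 rose, 4 fell and 10 had no call, with a median of -0.014. The test called 14.0% of all features higher and 15.0% lower. The largest changes were those of Ccl5 (1.56 ± 0.054), the coagulation starter gene F3 (0.88 ± 0.27), the cell cycle inhibitor gene Cdkn1a (0.76 ± 0.12) and the inducible nitric oxide synthase gene Nos2 (0.58 ± 0.14), all higher in treated cells (adjusted p from 4.34e-07 to 3.43e-04). Lgals3 (-0.12 ± 0.095) and Nos3 (-0.092 ± 0.092) had no call. These gene lists, too, were written with earlier results known.

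By the Euclidean distance over the 6 array values, the named genes most like Klf6 were Odc1, the first enzyme of polyamine synthesis (0.82 ± 0.077, distance 0.208), 1700109H08Rik (0.90 ± 0.069, distance 0.300) and Tmem176b (0.78 ± 0.033, distance 0.322). Those most like Klf9 were the DNA repair gene Brca1 (-0.92 ± 0.093, distance 0.196), Tmem51 (-0.99 ± 0.070, distance 0.295) and Gask1b (-1.04 ± 0.15, distance 0.320). The distance compares values of 1 contrast on 6 arrays and so mainly matches genes of like size of change.

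**Figure D5:**
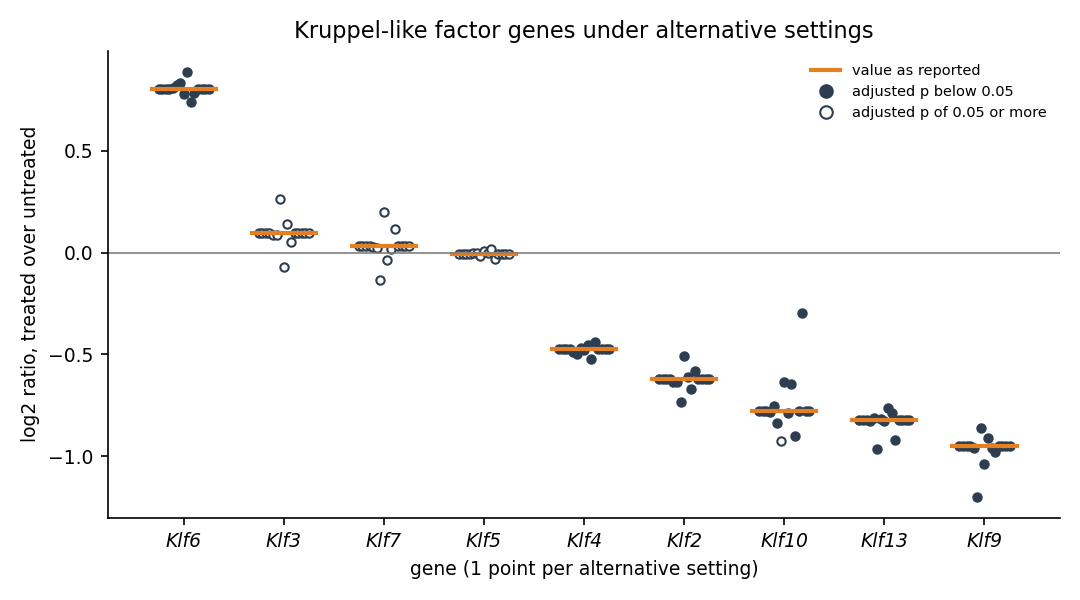
Log2 ratio of treated over untreated RNA for each of the 9 Krüppel-like factor genes (horizontal axis) under 15 alternative ways of processing, 1 point each; filled points have a limma adjusted p below 0.05, open points do not, and the orange line is the value reported. The 6 called genes kept their sign under all 15, with Klf10 open once and closest to 0 at -0.30.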

How the data were processed

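The authors deposited a table of log2 ratios for 16281 probes on 6 arrays, each array with a median of 0. Without exact zeros the medians were not all 0, since centring arrays on them moved Klf6 from 0.804 to 0.802. Base 2 was inferred from the maximum of 6.643856, the log2 of 100. Scanner, background correction and normalization are not given in the sources used here, nor is any intensity, so the compression of dim spots is unknown and the number of arrays limits the precision. Exact zeros were taken as not measured, which left 14195 to 15027 values per array and 13415 probes with a value on all 6 arrays. Gene symbols came from the platform annotation, checked by Entrez ID against RefSeq's GRCm38.p6 gene table (0 changed). Probes of 1 gene were averaged, which gave 11364 features, 9574 of them named.

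As deposited, arrays of opposite dye orientation correlated from -0.716 to -0.283, and those of the same orientation from 0.735 to 0.853. The sign of each array that carried treated RNA in Cy3 was turned. Reading the 2 arrays of a set as 1 replicate is an assumption, and no label says that sets came from separate cultures, so p-values measure a spread that may be technical. Set means were tested against 0 with limma 3.58.1 in R 4.3.3 (lmFit and eBayes, two-sided, Benjamini-Hochberg adjusted over all features), which was tested on simulated data. The genes described, the lists and the rule for named genes were chosen with earlier results of these data known. The rule names every listed KLF gene, the other SP/KLF genes, per list up to 4 called and 2 uncalled genes of largest absolute change, and the 3 genes nearest to the KLF genes with the largest rise and fall. Kdr, Cd4 and Il1b were named outside it, after their values were seen. Alternatives covered the set number as random, fixed or no replicate block, median centring, scaling, quantile normalization, either orientation alone, leaving out a set, a filter of 2 measured sets, exact zeros kept, single probes, robust variances and an adjusted p below 0.01.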

Additional observations from a re-analysis of the deposited data

Results flagged for a closer look

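Among the 6 array values of each of 17 SP/KLF genes, 1 stood apart from the others by Dixon's criterion, which chance meets in about 1 of 20 groups. It was that of Klf10 on the array of set 2 with treated RNA in Cy5, at -1.589, with the nearest other value at -0.836. Sp5 read above 0 on all 3 arrays with treated RNA in Cy5 and below 0 on all 3 sign-turned arrays with treated RNA in Cy3, a difference of 0.78 between the orientations' means. Tested in limma's fit over all features, that dye effect had an adjusted p of 0.166 and did not pass.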

How the results depend on the processing

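The count of 6 called KLF genes, 1 higher and 5 lower, was also found under 15 of 16 other settings. With treated RNA in Cy5 alone it was 5, since Klf10 did not pass there. Leaving out each set gave 6 in every case, and 2618 to 2943 called features in place of 3294. Called features numbered 1752 with a fixed replicate block over 6 arrays. They numbered 1825 with treated RNA in Cy5 alone and 2382 with it in Cy3 alone. The causes of these counts were not tested. At the stricter threshold of a limma adjusted p below 0.01, 2127 features were called. Over 6 arrays, 3698 were called with a random replicate block and 2467 without a replicate block. Deviations of same-numbered arrays from their orientation's mean correlated at -0.484, -0.512 and -0.0203 in sets 1, 2 and 3. The consensus correlation within sets was -0.513. In sets 1 and 2, same-numbered arrays thus tended to depart in opposite directions after sign turning. Such departures partly cancel in a set's mean, so SDs and p-values over sets can be smaller than those over single arrays. The dye effect was called for 0 to 6 features when each set was left out, which was added after seeing the data.

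Signs turned for uncalled genes alone, and the cause was not tested. Klf5 was at 5.71e-04 with arrays scaled, 4.81e-04 with quantile normalization, 0.0071 with treated RNA in Cy3 alone and from -0.031 to 0.016 with a set left out. Klf7 was at -0.13 with treated RNA in Cy5 alone and from -0.034 to 0.12 with a set left out. Klf3 was at -0.070 with treated RNA in Cy3 alone.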

Other observations

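Genes known to be induced by glucocorticoids, of which Klf9 is one, went both ways. Of 8 measured, 1 rose and 3 fell, with a median of -0.14, beside 14.0% called higher and 15.0% lower over all features. The factor gene Cebpd rose to 2.16 ± 0.13 (4.47-fold, limma adjusted p = 3.40e-07). Tsc22d3, which encodes the glucocorticoid-induced leucine zipper protein, fell to -0.74 ± 0.32 (1.67-fold lower, limma adjusted p = 0.0015), and Ddit4, an inhibitor of mTOR signalling, to -0.61 ± 0.032 (1.53-fold lower, limma adjusted p = 4.24e-05). Per1 was at -0.18 ± 0.047 with a call, although it ranged from -0.53 to 0.16 over arrays. Dusp1 (-0.16 ± 0.12) and Fkbp5 (-0.12 ± 0.022) did not pass.

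Of 12 measured early genes of serum or TGF-β response listed beside Klf10, 6 rose and 4 fell, with a median of 0.15. Among all features, 14.0% were called higher and 15.0% lower. The zinc finger gene Egr1 rose to 2.25 ± 0.12 and the RNA-decay factor gene Zfp36 to 1.84 ± 0.12. The TGF-β family targets Id2 (-2.07 ± 0.18) and Smad6 (-1.07 ± 0.083) fell. Egr4 (0.045 ± 0.11) and Egr3 (-0.027 ± 0.10) had no call.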
